A study of Mus musculus with 32 samples.

Results

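RNA-seq of the hippocampus (HPC) compared 4 light-treated 5xFAD mice with 4 untreated 5xFAD mice, 8 of the 32 samples of the series. 5xFAD mice model Alzheimer's disease. Their transgenes include mutant human APP, the precursor of amyloid, driven by the regulatory sequence of Thy1, which is active mainly in neurons. All were male, on the C57BL/6J background and 6 months of age, and each sample was the HPC of 1 mouse. Light-treated mice received near-infrared light through the shaved scalp under isoflurane for 10 min, 3 times per week for 4 weeks. Untreated mice were also anaesthetised and shaved, and were placed under indoor lighting for the same time, so the groups differ in the light source and share the handling. HPC of 4 WT mice and meninges of light-treated and untreated 5xFAD mice (3 samples each) serve below as references. The WT mice were on the same background, 6 months of age and not light-treated. Meninges of 4 WT mice also entered the fit that compared the tissues. Of 22337 genes, the 12838 with at least 1 FPKM (fragments counted per unit of transcript length and of library size) in 3 or more of the 8 samples are described, and 9499 fell below that level. Among those described, 25 passed only through light-treated samples and 78 only through untreated samples, so that these had to be higher in that group. Of the genes named below, Onecut1, Ryr1 and Irs1 passed only through light-treated mice. Col6a2, Bmp3, Plekhf1, Pla2g4a, Col1a2 and Bace2 passed only through untreated mice.

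The HPC is a folded sheet of cortex needed for forming memories. Granule cells of the dentate gyrus receive cortical input and pass it to pyramidal cells, while interneurons that release GABA restrain both. The sheet lies against leptomeninges, whose fibroblasts make collagen-rich matrix, and against the choroid plexus, which secretes cerebrospinal fluid, so that a dissected HPC can bring along cells of either. In 5xFAD mice, microglia and astrocytes react to amyloid deposits. The comparison asks which genes of this tissue differ after a month of transcranial light.

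The 8 libraries held 13952825 to 22190051 counts, and 16838 to 18264 genes were above 0 in each. The test was edgeR's quasi-likelihood test on the deposited counts. The biological coefficient of variation, the typical spread of a gene between mice of a group, was 0.1955. Thy1, whose sequence drives the transgenes, had an FPKM of 522, 434, 444 and 486 in light-treated, 622, 439, 407 and 573 in untreated and 186, 170.3, 181 and 189 in WT mice, so every 5xFAD library was above every WT library. Between light-treated and untreated mice the log2 fold change was -0.12 (SE 0.14, adjusted p = 0.668) for Thy1 and 0.05 (SE 0.08, adjusted p = 0.756) for App. The defining markers of HPC neurons were high, with 2046, 2249, 2406 and 2208 FPKM of the kinase gene Camk2a in light-treated mice and 1357, 2051, 1846 and 1586 in untreated mice. On the first principal component, which held 34.2% of the variance, light-treated mice lay between 10.9 and 30.7, and untreated mice between -51 and -5.34. Untreated mouse 3, the library at -51, stood apart from the other untreated mice, and values without it are given below. Light-treated mouse 2 stood apart in genes of neighbouring brain regions, as described below.

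In HPC, 38 genes differed between light-treated and untreated 5xFAD mice by at least 2-fold with an adjusted p below 0.05, and were taken as DEGs. The fit also held the 4 WT mice, which add to the estimate of the spread. The DEGs were 0.296% of the genes tested, with 16 higher and 22 lower in light-treated mice. Without the threshold on size, 64 genes (0.499%) had an adjusted p below 0.05, of which 37 rose and 27 fell. The lower DEGs with the largest changes were Prg4, Bmp3 and Col6a2, and the higher ones Onecut1, Mycn and Fat4. The median log2 fold change of all tested genes was -0.02. Adjusted p values of the calls lay between 0.0319 and the threshold, and 2371 genes had an unadjusted p below 0.05. The number of calls rested on single mice, since leaving out 1 mouse at a time gave 0 to 135 DEGs, with 2 DEGs without untreated mouse 3, 0 without light-treated mouse 2 or 4, and 135 without untreated mouse 2. With the 8 compared samples alone, edgeR's test called 0 DEGs and 1 gene at an adjusted p below 0.05, and when only genes averaging 5 FPKM or more were kept it called 0. The adjusted p was 0.0808 for Col6a2 and 0.146 for Onecut1 in the 8 samples alone. DESeq2 on the 12 samples called 185 DEGs. All 38 DEGs kept their direction in each of the 8 fits that left out 1 mouse. They were called on these same values, and the groups did not overlap in the 16 higher and in 21 of the 22 lower DEGs. Leaving out 1 mouse therefore left little room for a reversal, and the kept direction is a description only.

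**Figure D1:**
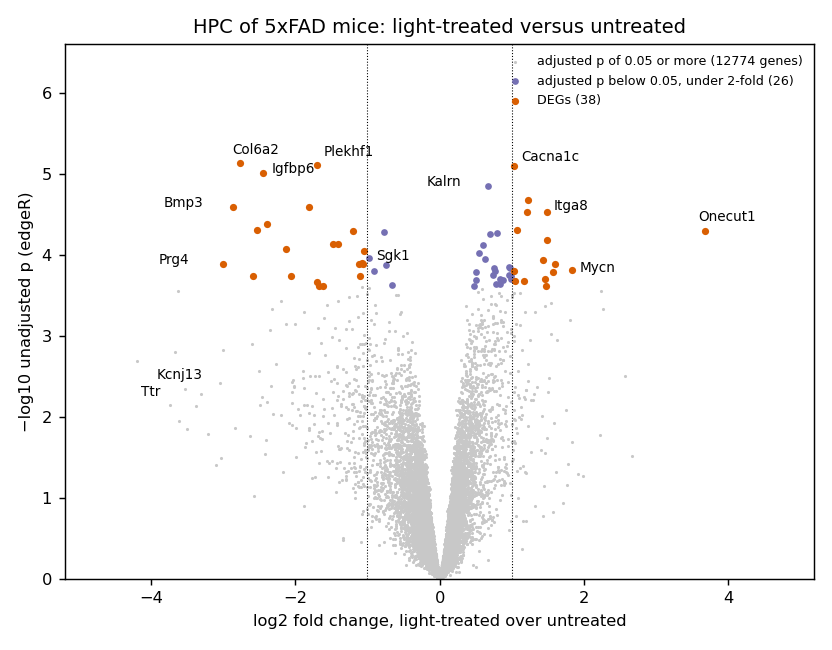
Each point is 1 of 12838 genes in HPC, with the log2 fold change of light-treated over untreated 5xFAD mice on the x axis (dotted lines mark 2-fold) and the negative log10 of the unadjusted p value on the y axis. The 38 DEGs, in orange, lie on both sides, while genes such as Ttr and Kcnj13 have large fold changes that missed the adjusted threshold.

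Several of the lower DEGs encode proteins of the extracellular matrix or are made by the cells that build it. Col6a2 (ENSMUSG00000020241, chr10:76595762-76623630, minus strand, GRCm38) encodes a chain of collagen VI, which links cells to the matrix around them. Its FPKM was 0.43, 0.52, 0.48 and 0.66 in light-treated mice and 2.63, 2.07, 6.11 and 3.43 in untreated mice. The groups did not overlap, and the log2 fold change was -2.77 (SE 0.39, adjusted p = 0.0319). Col6a1 (chr10:76708792-76726168, minus strand), the gene of the partner chain, lies 85162 bp from it and had 1.41, 1.69, 1.98 and 1.5 in light-treated mice and 12.3, 2.42, 9.11 and 10.5 in untreated mice. It too was lower in every light-treated mouse than in any untreated mouse, with a log2 fold change of -2.39 (SE 0.40, adjusted p = 0.0398). Fmod encodes fibromodulin, a proteoglycan that binds collagen fibrils, and was at 1.1 ± 0.299 FPKM (SD, n = 4) with light and 4.84 ± 1.79 FPKM without. Its log2 fold change was -2.13 (SE 0.39, adjusted p = 0.0478). Pcolce, which helps trim the ends of procollagen, had 2.29 ± 0.438 and 9.39 ± 3.73, a log2 fold change of -2.06 (SE 0.40, adjusted p = 0.048). The groups were separate for both genes. Crabp2 binds retinoic acid and is made by leptomeningeal fibroblasts, and had 0.68, 0.92, 1.41 and 1.36 in light-treated mice and 3.44, 6.98, 10.6 and 4.41 in untreated mice. Its log2 fold change was -2.53 (SE 0.43, adjusted p = 0.0398), with no overlap. Prg4, the gene of the lubricant lubricin, had 0.98, 0.31, 0.24 and 1.19 in light-treated mice and 0.72, 6.38, 9.5 and 3.29 in untreated mice. Untreated mouse 1 lay within the light-treated range and the other untreated mice above it, and the log2 fold change was -3.00 (SE 0.57, adjusted p = 0.048). Without untreated mouse 3 the log2 fold changes of Col6a2, Crabp2 and Prg4 were -2.38, -2.17 and -2.48, and Col6a2 and Igfbp6 were the 2 DEGs left.

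Of 44 collagens and collagen-processing genes listed, 29 were tested, 26 were lower in light-treated mice, and 4 fell past the threshold (Col6a2, Col6a1, Fmod and Pcolce). Their median log2 fold change was -0.77, and -0.44 without untreated mouse 1. Of the 29, 6 passed the level only through untreated mice, and of the other 23, 20 were lower with a median of -0.47. An unadjusted p below 0.05 was seen for 20 lower members, against 9.92% of all tested genes that were lower at that level, and for 1 higher member, Col25a1 (0.36), against 8.54%. Light-treated mice lay below all untreated mice in 13 members, against 3.92% of all tested genes. These counts are over all 29 members, the 6 that passed only through untreated mice included. Col25a1, a collagen found in amyloid plaques, was named after its value was seen.

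Of 24 markers of leptomeningeal fibroblasts, 18 were tested, and 6 of these are also in the collagen list, Fmod and Pcolce among them. The 18 had lower values after light, with a median of -1.49 on the log2 scale. Of these, 3 passed the level only through untreated mice, and the other 15 had a median of -1.42. The 12 that are not in the collagen list were also lower, with a median of -1.41. Crabp2, Fmod and Pcolce fell past the threshold. Over all 18, an unadjusted p below 0.05 was found for 14 members, all lower, against 9.92% of all tested genes that were lower at that level. Col1a2, a chain of collagen I, had 0.63, 0.74, 0.63 and 0.900 in light-treated mice and 1.1, 2.65, 3.35 and 1.52 in untreated mice, with no overlap and a log2 fold change of -1.57 (SE 0.34, adjusted p = 0.0583). Igfbp2 had -1.40, adjusted p = 0.0797 on the log2 scale and Igf2 -1.73, adjusted p = 0.114. The other 6 markers were below the level tested, among them Foxc1, Foxd1 and Tbx18, transcription factors of these cells.

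The summed FPKM of the 24 fibroblast markers was 93.2, 106, 108 and 107 in light-treated mice and 208, 303, 382 and 236 in untreated mice. Every light-treated mouse was below every untreated mouse, and WT mice had 140.3, 208, 99 and 96.2, a range that overlaps the light-treated values. In a bulk sample, fewer cells of a type and less RNA per cell cannot be told apart. The part of attached leptomeninges in the fall of the collagen genes was not tested.

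The promoters of 4 DEGs are printed because the collagen VI genes are neighbours that fell together, Igfbp6 had the largest mean level among the DEGs that fell by over 4-fold, and Onecut1 had the largest rise. Each run holds the 250 bases before and the 50 after a RefSeq start on GRCm38.p6, 5′ to 3′ on the strand of the gene. Capitals mark matches, on either strand, to the TATA box (TATAAA), the GC box (GGGCGG), the CCAAT box (CCAAT) and the AP-1 site (TGANTCA).
Col6a1 (chr10:76725995-76726294, minus strand): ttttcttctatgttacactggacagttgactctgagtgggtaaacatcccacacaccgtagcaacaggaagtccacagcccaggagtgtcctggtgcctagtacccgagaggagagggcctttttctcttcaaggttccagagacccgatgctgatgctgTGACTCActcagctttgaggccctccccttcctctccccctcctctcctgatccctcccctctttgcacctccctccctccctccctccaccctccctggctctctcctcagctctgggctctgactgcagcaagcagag
Col6a2 (chr10:76623355-76623654, minus strand): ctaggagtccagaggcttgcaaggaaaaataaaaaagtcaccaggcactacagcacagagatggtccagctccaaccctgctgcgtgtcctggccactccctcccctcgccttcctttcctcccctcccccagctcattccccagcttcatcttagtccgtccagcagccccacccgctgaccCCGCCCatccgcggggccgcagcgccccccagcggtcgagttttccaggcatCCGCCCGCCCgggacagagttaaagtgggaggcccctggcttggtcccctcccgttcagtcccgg
Igfbp6 (chr15:102143936-102144235, plus strand): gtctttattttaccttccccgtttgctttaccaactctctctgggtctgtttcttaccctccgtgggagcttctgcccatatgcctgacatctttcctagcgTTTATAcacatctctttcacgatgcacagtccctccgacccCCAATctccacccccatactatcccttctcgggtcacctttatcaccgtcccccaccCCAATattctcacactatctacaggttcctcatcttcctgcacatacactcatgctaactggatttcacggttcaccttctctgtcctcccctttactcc
Onecut1 (chr9:74861671-74861970, plus strand): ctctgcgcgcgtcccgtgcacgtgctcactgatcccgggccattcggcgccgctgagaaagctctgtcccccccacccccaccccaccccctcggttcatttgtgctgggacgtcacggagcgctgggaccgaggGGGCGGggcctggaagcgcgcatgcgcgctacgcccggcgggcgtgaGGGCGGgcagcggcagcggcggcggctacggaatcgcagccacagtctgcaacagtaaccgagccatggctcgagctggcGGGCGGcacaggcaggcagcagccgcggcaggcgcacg
Over all 32851 promoters of that table, 13.6% held a TATA box, 35.7% a GC box, 37.4% a CCAAT box and 7.81% an AP-1 site. The Col6a1 window held 1 AP-1 match, and the Col6a2 window, one of 2 listed for that gene, held 3 GC boxes, of which a pair overlap. The neighbours therefore shared none of these 4 motifs in the windows shown. The Igfbp6 window held 1 TATA box and 2 CCAAT boxes. Onecut1 had 3 GC boxes and a GC content of 73%, against a median of 52.7% over all promoters. A match is a match of letters and says nothing of binding in these mice.

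Igfbp6 (ENSMUSG00000023046, chr15:102144362-102149511, plus strand) encodes a binding protein with a preference for IGF2. Its FPKM was 14.8, 13, 18.6 and 10.01 in light-treated mice and 89.3, 31.1, 134 and 53.3 in untreated mice. The lowest untreated mouse was above the highest light-treated mouse, and the log2 fold change was -2.45 (SE 0.36, adjusted p = 0.0319). Of 13 tested genes of insulin-like growth factors, their receptors and binding proteins, Igfbp6 alone passed the threshold, 8 were lower, and the median log2 fold change was -0.27, or -0.100 without untreated mouse 1, -0.16 without light-treated mouse 1 and -0.17 without light-treated mouse 2. Irs1, which relays the signal of the receptor, had a log2 fold change of 0.43, adjusted p = 0.126.

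Bmp3, a ligand of the BMP family that opposes other BMPs, had an FPKM of 0.27, 0.29, 0.67 and 0.17 in light-treated mice and 3.92, 0.89, 2.37 and 2.21 in untreated mice. All 4 light-treated values were below the untreated values, and the log2 fold change was -2.87 (SE 0.46, adjusted p = 0.0386). Emp3, a small membrane protein, had 4.02, 3.79, 4.28 and 4.52 in light-treated mice and 13.8, 10.9, 12.9 and 7.44 in untreated mice, also without overlap, and a log2 fold change of -1.41 (SE 0.25, adjusted p = 0.0447). These were the 2 genes that fell among 43 tested ligands, receptors and targets of TGF-beta and BMP. The list had 28 lower members and a median of -0.26, which was -0.12 without untreated mouse 3 and -0.16 without untreated mouse 1. Id1, a target of BMP receptors that holds back differentiation, had 10.5, 13.1, 13.9 and 15.2 in light-treated mice and 20.1, 21.4, 44.3 and 25.6 in untreated mice, and its log2 fold change of -1.08, adjusted p = 0.0501 missed the threshold. Bmp7 had -1.30, adjusted p = 0.071. Ccn1 and Ccn3, matrix proteins that bind integrins, had log2 fold changes of -1.62, adjusted p = 0.0489 and -1.48, adjusted p = 0.0447.

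The remaining lower DEGs had varied roles. Plekhf1, an endosomal adaptor, had an FPKM of 0.42, 0.96, 0.87 and 0.86 in light-treated mice and 2.55, 2.35, 2.66 and 2.54 in untreated mice. It had the smallest relative SD over untreated mice among the lower DEGs, with untreated mice at 2.52 ± 0.129 (SD, n = 4), and its log2 fold change was -1.70 (SE 0.24, adjusted p = 0.0319). Sphk1, the kinase that makes sphingosine 1-phosphate, had 1.06, 0.82, 0.93 and 1.45 in light-treated mice and 3.34, 4.24, 3.83 and 2.16 in untreated mice, with a log2 fold change of -1.81 (SE 0.29, adjusted p = 0.0386). Pla2g4a, the phospholipase that frees arachidonic acid, fell as well (-1.10, adjusted p = 0.048). Cdkn1a encodes p21, an inhibitor of the cell cycle induced by p53 and by glucocorticoids, and had 4.89, 6.28, 7.28 and 6.88 in light-treated mice and 33.5, 17.3, 28.8 and 8.19 in untreated mice. Untreated mouse 4 was close to the light-treated range, and the log2 fold change was -1.68 (SE 0.34, adjusted p = 0.0489). Ecel1, an endopeptidase of neurons known to be induced by injury, had 0.34, 1.08, 0.57 and 0.31 in light-treated mice and 3.49, 1.17, 2.59 and 6.79 in untreated mice, and a log2 fold change of -2.59 (SE 0.51, adjusted p = 0.048). Log2 fold changes were -1.70 for Tmem91, -1.19 for Prr5, -1.12 for Ahnak, -1.07 for the cadherin Cdh22 and -1.05 for Tmsb10, which binds actin monomers. Their adjusted p values lay between 0.0398 and 0.0488. Tmsb10 was the most abundant DEG that fell, at 193 ± 57.3 FPKM in light-treated and 399 ± 52.3 in untreated mice.

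Sgk1, a kinase induced by glucocorticoids, fell by just under 2-fold. Its FPKM was 36.5, 37.9, 39.8 and 37.9 in light-treated mice and 67, 73.5, 74.5 and 90.5 in untreated mice, with a narrow spread in light-treated mice, and its log2 fold change was -0.98 (SE 0.18, adjusted p = 0.048). Sgk1 and Cdkn1a were the called members among 16 tested genes of the glucocorticoid response. In that list 12 members were lower, 9 of them with an unadjusted p below 0.05 (9.92% of all tested genes) and none of the higher members, and the median was -0.47. Tsc22d3, which encodes the anti-inflammatory protein GILZ, had 31.8, 39, 36 and 33.1 in light-treated mice and 30.7, 76.5, 90.8 and 75.3 in untreated mice, where untreated mouse 1 lay below the light-treated mice and the other untreated mice far above, and a log2 fold change of -0.98, adjusted p = 0.0853. Nfkbia, the inhibitor of NF-kappaB, had a log2 fold change of -0.90, adjusted p = 0.0689. WT mice had a mean FPKM of 99.5 ± 30.2 (SD, n = 4) for Sgk1 and of 83.8 ± 17.1 for Tsc22d3.

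Among the 16 higher DEGs were regulators of transcription and of RNA. Onecut1 (ENSMUSG00000043013, chr9:74861921-74891781, plus strand), a homeobox gene, had an FPKM of 2.11, 2.78, 0.94 and 1.4 in light-treated mice and 0, 0.34, 0.0700 and 0.12 in untreated mice. Every light-treated mouse was higher, and the log2 fold change was 3.69 (SE 0.63, adjusted p = 0.0398). Its level in untreated mice was close to 0, so the size of the fold is uncertain, and it ran from 3.27 to 4.80 when 1 mouse was left out. Mycn, a MYC family factor of dividing progenitors, had 4.62, 4.47, 3.00 and 3.6 in light-treated mice and 0.73, 1.72, 0.99 and 0.92 in untreated mice, with no overlap and a log2 fold change of 1.84 (SE 0.36, adjusted p = 0.048). Rreb1, a zinc finger repressor, had 11.9, 9.61, 6.22 and 8.92 in light-treated mice and 2.79, 4.77, 3.52 and 4.53 in untreated mice, and a log2 fold change of 1.22 (SE 0.19, adjusted p = 0.0386). Glis3, another zinc finger factor, rose by 1.05 and Celf3, a neuronal RNA-binding protein of splicing, by 1.07 on the log2 scale (adjusted p = 0.048 and 0.0398). Zfp599 rose under 2-fold (0.97, adjusted p = 0.048).

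Sema5a, Itga8, Fat4 and Thsd7a were further higher DEGs. Sema5a (chr15:32244810-32696341, plus strand), a semaphorin that restrains synapse formation by granule cells, had an FPKM of 17.4, 16.6, 8.52 and 8.36 in light-treated mice and 4.9, 6.56, 2.47 and 4.25 in untreated mice. Light-treated mice 1 and 2 were the highest, and mice 3 and 4 were still above all untreated mice, giving a log2 fold change of 1.46 (SE 0.29, adjusted p = 0.048). Itga8, the alpha 8 integrin chain, had 4.52, 5.21, 2.86 and 3.36 in light-treated mice and 1.12, 1.54, 0.82 and 2.07 in untreated mice, and a log2 fold change of 1.48 (SE 0.24, adjusted p = 0.0386). Fat4, a giant cadherin, had 3.34, 2.84, 2.07 and 2.36 in light-treated mice and 0.36, 1.45, 0.74 and 0.95 in untreated mice, and a log2 fold change of 1.60 (SE 0.30, adjusted p = 0.048). Thsd7a had a log2 fold change of 1.21, adjusted p = 0.0386. Of 45 tested axon guidance receptors and ligands, 3 rose (Sema5a, Kalrn and Dcc) and 1 fell (Sema4a, -0.91, adjusted p = 0.048). In that list 34 members were higher, 16 with an unadjusted p below 0.05 (8.54% of all tested genes), 8 lower members had one (9.92%), and the median was 0.23. Kalrn, an exchange factor that builds dendritic spines, had 70.7, 81.4, 62.4 and 60.4 in light-treated mice and 40.4, 47.7, 41.4 and 41.8 in untreated mice, and a log2 fold change of 0.67 (SE 0.10, adjusted p = 0.0365). Dcc, the netrin receptor, had 4.6, 4.56, 3.96 and 4.2 in light-treated mice and 1.64, 2.53, 1.3 and 2.62 in untreated mice, and a log2 fold change of 0.88 (SE 0.18, adjusted p = 0.048). Both were separate between the groups.

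Cacna1c and Ryr1, both calcium channels, were among the higher DEGs. Cacna1c (ENSMUSG00000051331, chr6:118587240-119196418, minus strand), the pore of an L-type calcium channel, had an FPKM of 4.95, 3.16, 2.61 and 2.53 in light-treated mice and 1.24, 1.71, 1.88 and 1.49 in untreated mice. It had the lowest p value of the genes that rose, with a log2 fold change of 1.03 (SE 0.15, adjusted p = 0.0319) and no overlap. Ryr1, which releases calcium from the endoplasmic reticulum, had 1.93, 2.01, 1.08 and 1.61 in light-treated mice and 0.39, 0.86, 0.72 and 0.38 in untreated mice, and a log2 fold change of 1.49 (SE 0.26, adjusted p = 0.0447). The voltage-gated sodium and calcium channels had 29 tested members, of which 20 were higher and 4 rose, namely Cacna1c, Scn3a (0.80), Cacna1e (0.79) and Scn8a (0.48), while none fell. Their median was 0.13, or 0.27 without untreated mouse 3 and 0.21 without light-treated mouse 3. Of the 29, 9 higher members and 1 lower had an unadjusted p below 0.05, against 8.54% and 9.92% of all tested genes. Of 52 potassium channels, 34 were higher and 2 rose. These were Kcna4, with an FPKM of 11.4, 15.4, 7.94 and 9.11 in light-treated mice and 6.62, 5.78, 3.52 and 5.22 in untreated mice and a log2 fold change of 1.03 (SE 0.20, adjusted p = 0.048), and Kcnd2 (0.76, adjusted p = 0.048), both of which carry fast inactivating A-type current. The median was 0.15, from 0.05 without untreated mouse 1, 0.07 without light-treated mouse 2 and 0.09 without light-treated mouse 1 to 0.31 without untreated mouse 3, and Kcnj13, a channel of the choroid plexus, was the lowest member at -3.53, adjusted p = 0.12. Of the 52, 12 higher and 3 lower members had an unadjusted p below 0.05. Over all tested genes, 0.499% had an adjusted p below 0.05. The called channels of both lists lie in the longest of 5 equal groups of genes by transcript length, described below. In that group 63.4% of genes were higher. What transcript length adds to the channel lists was not tested.

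The other higher DEGs were Fam163b, Slc26a10, Lratd2 and Tbc1d8b. Fam163b, a neuronal gene, was the most abundant, with an FPKM of 206, 187, 122 and 119 in light-treated mice and 43.4, 94, 50.6 and 44.6 in untreated mice, and a log2 fold change of 1.43 (SE 0.27, adjusted p = 0.048). Untreated mouse 2 was nearest to the light-treated range. Slc26a10 had a log2 fold change of 1.57, adjusted p = 0.048, Lratd2 of 1.48, adjusted p = 0.0489 and Tbc1d8b of 1.17, adjusted p = 0.048. In all 16 higher DEGs the 4 light-treated values were above the 4 untreated values, and in 21 of the 22 lower DEGs they were below, against 3.68% and 3.92% of all tested genes. These genes were called on the same values, so the counts are a description. Among genes under 2-fold, 21 rose and 5 fell. Rbfox1, a splicing factor of neurons, had an FPKM of 277, 280.4, 216 and 215 in light-treated mice and 156, 176, 125 and 165 in untreated mice, and a log2 fold change of 0.60 (SE 0.11, adjusted p = 0.0447). Auts2, Ppfia2, Cttnbp2 and Mfsd4a rose by 0.64, 0.55, 0.70 and 0.96 on the log2 scale. Lrrtm4, which organises synapses of granule cells, had 1.00, adjusted p = 0.048. Slc13a3, a dicarboxylate transporter of astrocytes, and Pafah1b3 fell (-0.78, adjusted p = 0.0398 and -0.74, adjusted p = 0.048).

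**Figure D2:**
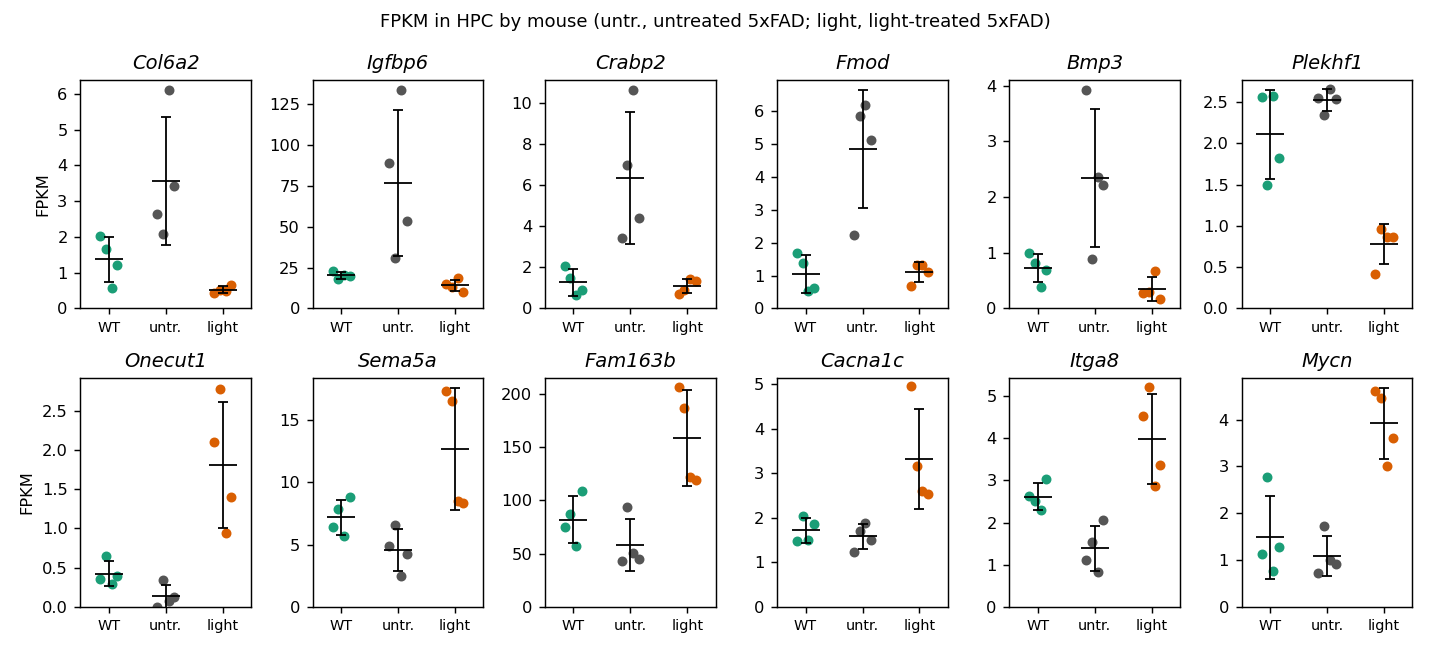
FPKM in HPC of single mice (WT, 5xFAD without light, 5xFAD with light) for 6 lower DEGs (top) and 6 higher DEGs (bottom), where points are mice and bars are the mean with its SD (n = 4). Light-treated mice are below all untreated mice in the top row and above them in the bottom row, and untreated mice spread most for Igfbp6, from 31.1 to 134 FPKM.

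Receptors and cell markers of neurons were then compared by list. None of the 37 tested glutamate and GABA receptors passed the threshold, 27 were higher in light-treated mice, and the median log2 fold change was 0.29. An unadjusted p below 0.05 was found for 17 higher and 3 lower members, against 8.54% and 9.92% of all tested genes. Grin2a, a subunit of the NMDA receptor, had an FPKM of 32.6, 28.8, 19.8 and 23.9 in light-treated mice and 15.1, 18.1, 10.2 and 14.3 in untreated mice. The groups were separate, but its log2 fold change of 0.82 (SE 0.17, adjusted p = 0.0517) missed the threshold. Log2 fold changes were 0.61 for Grin2b and 0.42 for the AMPA receptor subunit Gria2, with adjusted p values of 0.0689 and 0.075. The 31 genes of presynaptic release had a median of 0.04, with 17 higher and 14 lower and none called. An unadjusted p below 0.05 was found in 3 higher and 4 lower members, near the shares of all tested genes. That median changed sign without light-treated mouse 2, to -0.09, and without untreated mouse 3, to -0.00049.

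Of 19 tested markers of excitatory neurons of the HPC, 18 were higher, none was called and the median was 0.34. Without untreated mouse 3 it was 0.13. An unadjusted p below 0.05 was found in 6 higher members and 1 lower, against 8.54% and 9.92% of all tested genes. Tdo2 and Dsp, which mark granule cells, had the largest values. Tdo2 had an FPKM of 7.62, 8.45, 5.21 and 5.92 in light-treated mice and 0.36, 3.89, 1.01 and 0.54 in untreated mice, all light-treated mice being above the untreated mice, and a log2 fold change of 2.26 (SE 0.49, adjusted p = 0.0627). Dsp had 4.17, 3.6, 1.4 and 2.14 in light-treated mice and 0.0400, 1.49, 0.200 and 0.13 in untreated mice and a log2 fold change of 2.57 (SE 0.72, adjusted p = 0.114). Untreated mouse 2 was far above the other untreated mice in both. Prox1, the factor that sets granule cell identity, had 1.07, adjusted p = 0.172 and was named after its value was seen. The summed FPKM of the list was 3517, 4003, 3634 and 3504 in light-treated mice and 2455, 3369, 3089 and 2578 in untreated mice, so every light-treated mouse was above every untreated mouse. WT mice had 3000.5, 3283, 3317 and 3543, a range that overlaps the light-treated values. Most of each sum was Camk2a, whose values, given above, overlapped between the groups (log2 fold change 0.43, adjusted p = 0.0811). Of the 19 members, 1 had all light-treated mice above all untreated mice, against 3.68% of all tested genes. The sum therefore mostly follows Camk2a.

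Interneuron markers had lower values instead. All 19 tested markers were lower in light-treated mice, with a median of -0.44, and none passed the adjusted threshold. An unadjusted p below 0.05 was found for 7, against 9.92% of all tested genes that were lower at that level. Gad2, an enzyme of GABA synthesis, had an FPKM of 14.2, 12.7, 11.5 and 11.2 in light-treated mice and 18.2, 14.1, 20.1 and 18.9 in untreated mice. Light-treated mouse 1 lay just inside the untreated range, and the log2 fold change was -0.53 (SE 0.12, adjusted p = 0.063). Npy, a neuropeptide of interneurons, had 150.5, 87.5, 99 and 138 in light-treated mice and 728, 171, 424 and 181 in untreated mice, separate between the groups, and a log2 fold change of -1.68 (SE 0.39, adjusted p = 0.0704). Slc32a1, which loads GABA into vesicles, had -0.68, adjusted p = 0.111 and Reln -0.60, adjusted p = 0.111. The peptides Vip and Sst and the calcium buffer Pvalb, chosen after their values were seen, were at -1.47, -0.89 and -1.09 on the log2 scale, and none was called (adjusted p = 0.115, 0.153 and 0.135). Without untreated mouse 3 these were -0.85, -0.85 and -0.51. Summed over the list, FPKM was 1551, 1204, 1352 and 1529.5 in light-treated mice and 1915, 1652, 2517 and 1596 in untreated mice, with no overlap, and WT mice had 1960.3, 1818, 2204 and 2059.6, all above the light-treated mice.

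Of 14 tested genes of neurogenesis in the dentate gyrus, Mycn rose and none fell, while 9 were lower and the median was -0.19 (-0.02 without untreated mouse 3). An unadjusted p below 0.05 was found in 3 lower and 2 higher members, against 9.92% and 8.54% of all tested genes. Id1 (log2 fold change -1.08, adjusted p = 0.0501) and Id2 (-0.68, adjusted p = 0.14), inhibitors of differentiation, were among the lower members. The summed FPKM was 233, 264, 275 and 272 in light-treated mice and 396, 296, 485 and 306 in untreated mice. Each light-treated sum was below each untreated sum. Much of each sum was Id2, at 118, 137, 151 and 141 in light-treated mice and 235, 158, 327 and 150 in untreated mice. The sum therefore mostly follows Id2 and does not describe the list as a whole, in which 5 members rose in value, Mycn and Neurod1 among them. Neurod1, a factor of young granule cells, had an FPKM of 12.6, 13, 10.5 and 10.1 in light-treated mice and 7.09, 9.17, 4.98 and 7.24 in untreated mice and a log2 fold change of 0.69, adjusted p = 0.0797. Progenitor and division genes such as Eomes, Nes and Mki67 were below the level tested. Immediate early genes, which neurons switch on with activity, had 19 of 23 members lower and a median of -0.62 (-0.32 without untreated mouse 3), with none called. Of the lower members, 10 had an unadjusted p below 0.05, against 9.92% of all tested genes. Fosb had an FPKM of 1.65, 1.42, 1.03 and 1.45 in light-treated mice and 15.9, 2.05, 2.97 and 1.74 in untreated mice and a log2 fold change of -1.88, adjusted p = 0.12. Untreated mouse 1 was far above all others, and the log2 fold change ran from -2.17 to -0.65 when 1 mouse was left out. Fos had -0.91, adjusted p = 0.14 and Nr4a2 -0.62, adjusted p = 0.114, while Npas4 and Jun were the higher members with an unadjusted p below 0.05 (1.58, adjusted p = 0.16 and 0.54, adjusted p = 0.166), chosen after they were seen.

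Markers of the neighbouring thalamus and habenula had a median of 0.73 over 10 tested members, which rested on light-treated mouse 2. Their summed FPKM was 50.9, 363, 68.7 and 52 in light-treated mice and 70.5, 70.3, 118 and 136 in untreated mice. Gpr151, a receptor of habenula neurons, had 0.16, 25.5, 1.23 and 0.51 in light-treated mice and 1.48, 0.62, 1.61 and 0.46 in untreated mice. Without light-treated mouse 2 the median of the list was -0.68 and the log2 fold change of Gpr151 was -0.69. Their part in the calls was not tested, and without that mouse there were 0 DEGs.

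**Figure D3:**
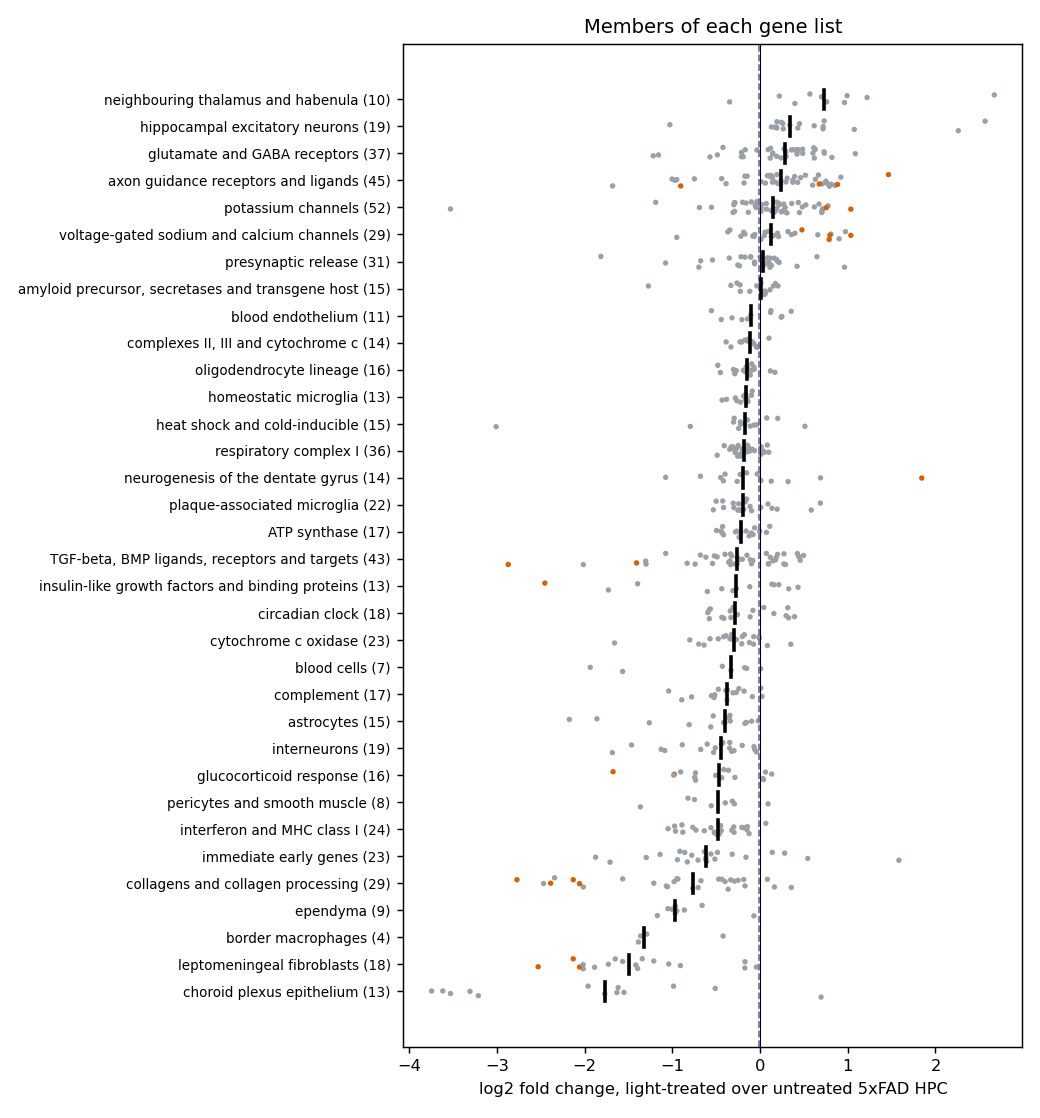
Log2 fold change of light-treated over untreated 5xFAD mice in HPC for each tested member of 34 gene lists (number tested in parentheses), ordered by the median of the list (black bar). Orange points have an adjusted p below 0.05, the dashed line is the median of all tested genes at -0.02, and fibroblast and choroid plexus markers have medians of -1.49 and -1.77.

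DESeq2, run as an alternative on the same 12 samples, called more members of several lists in which edgeR's test called 0. Over all 12838 tested genes it called 353 higher and 277 lower at an adjusted p below 0.05. Single calls in a list are therefore not read as a result about that list. DESeq2 called 7 interneuron markers and 5 immediate early genes lower, and 4 markers of excitatory neurons higher. Of glutamate and GABA receptors it called 6 higher and 2 lower. It called 6 interferon genes, 4 choroid plexus markers, 2 complement genes and 1 astrocyte marker lower, and 2 clock genes higher. It called 2 pericyte markers, 1 endothelial marker and 1 heat shock gene lower, and of presynaptic genes 1 higher and 1 lower. It called 0 members of the microglial, oligodendrocyte, ependymal, border macrophage, blood cell, thalamus, amyloid and respiratory lists. With limma on log2(FPKM + 1) the counts were 2 excitatory markers and 1 receptor higher, 1 interferon gene lower, and 0 in the other lists named here. Over all tested genes limma called 36 higher and 31 lower.

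Glial and immune lists had no called member by edgeR's test. All 15 tested astrocyte markers were lower in light-treated mice, with a median of -0.40 (-0.23 without untreated mouse 1). An unadjusted p below 0.05 was found for 7, against 9.92% of all tested genes that were lower at that level. Gjb6, a gap junction protein of astrocytes, had an FPKM of 28.4, 41.4, 33 and 33 in light-treated mice and 35.6, 57.9, 54.7 and 51.8 in untreated mice and a log2 fold change of -0.56, adjusted p = 0.111. Aldh1l1 had 23.8, 27.5, 28 and 25.6 in light-treated mice and 39, 31, 38.8 and 29.9 in untreated mice, with no overlap, and -0.42, adjusted p = 0.125. The reactive markers Cd44, Vim and Lcn2 had log2 fold changes of -1.86, adjusted p = 0.2, -1.26, adjusted p = 0.208 and -2.17, adjusted p = 0.269. Cd44 was at 23.3, 2.19, 0.72 and 5.2 in untreated mice, so mouse 1 set its mean.

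Microglial markers had small differences. The 13 homeostatic markers were all lower with a median of -0.16, between -0.27 and -0.08 with 1 mouse left out, and none reached an unadjusted p of 0.05. Of 22 markers of plaque-associated microglia, 16 were lower, the median was -0.20 but 0.0014 without untreated mouse 1 and -0.35 without light-treated mouse 3, and 1, the lysosomal membrane gene Cd63, had an unadjusted p below 0.05. Its FPKM was 133, 154, 212 and 213 in light-treated mice and 389, 224, 192 and 219 in untreated mice, with overlap, and its log2 fold change -0.53, adjusted p = 0.224. Apoe, the lipid carrier whose human alleles set the risk of Alzheimer's disease, had 4239.6, 4510, 5567 and 5541 in light-treated mice and 6816, 5638, 4923 and 5976 in untreated mice. The groups overlapped and its log2 fold change was -0.24 (SE 0.13, adjusted p = 0.351). The summed FPKM of the plaque-associated list was 6623, 7018, 9691 and 9337 in light-treated mice and 12237, 8961, 7701 and 9859 in untreated mice, while WT mice had 4713, 4519, 4539 and 4248. Most of each of these sums was Apoe.

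Interferon-stimulated and MHC class I genes were lower in 23 of 24 tested members, with a median of -0.48 (-0.31 without light-treated mouse 2). Of the 24, 1 passed the level only through untreated mice, and the other 23 had a median of -0.46. Over the 24, an unadjusted p below 0.05 was found for 11 lower members, against 9.92% of all tested genes. In 6 the light-treated mice were below all untreated mice, against 3.92%. Ifitm2, which blocks viral entry, had an FPKM of 20.3, 18.9, 28.4 and 20.5 in light-treated mice and 52.3, 48.9, 34.1 and 37.1 in untreated mice, and its log2 fold change of -0.97 (SE 0.20, adjusted p = 0.0504) was just outside the threshold. Ifit1 had 1.6, 2.38, 3.28 and 2.19 in light-treated mice and 4.94, 4.21, 6.64 and 3.74 in untreated mice, and a log2 fold change of -1.05 (SE 0.25, adjusted p = 0.075). Usp18, which damps the interferon receptor, had -0.96, adjusted p = 0.0995. Of 17 tested complement genes, 15 were lower and the median was -0.38, or -0.10 without untreated mouse 1 and -0.23 without light-treated mouse 2. Of these, the initiating protease Masp1 had -0.52, adjusted p = 0.12. Oligodendrocyte lineage markers had a median of -0.15 over 16 members, between -0.39 and -0.05 with 1 mouse left out, and none with an unadjusted p below 0.05.

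Markers of tissues that border the HPC had lower values in light-treated mice, with wide spread. Choroid plexus markers had 12 of 13 members lower, a median of -1.77 and none called. An unadjusted p below 0.05 was found in 9 lower members and 1 higher, against 9.92% and 8.54% of all tested genes. Of the 13, 2 passed the level only through untreated mice, and of the other 11, 10 were lower with a median of -1.63. Ttr, the thyroxine carrier that makes up much of the choroid plexus transcriptome, had an FPKM of 122, 108, 56.8 and 233 in light-treated mice and 3136, 2877, 677 and 197 in untreated mice. Untreated mice 1 and 2 were far above, untreated mouse 4 lay within the light-treated range, and the log2 fold change was -3.75 (SE 1.19, adjusted p = 0.139). Kcnj13 had 1.08, 1.94, 1.62 and 2.32 in light-treated mice and 35.5, 29.1, 9.27 and 3.3 in untreated mice, separate between the groups, and -3.53 (SE 1.04, adjusted p = 0.12). Tmem72, the only higher member, had 0.70, adjusted p = 0.223 and was named after its value was seen. Summed over the 16 markers, FPKM was 193, 182, 116 and 339 in light-treated mice and 3522, 3233, 862 and 291 in untreated mice. WT mice ranged as widely, at 189, 3215, 544 and 88.8. Ependymal markers were all lower in 9 tested members, with a median of -0.97. An unadjusted p below 0.05 was found in 6, against 9.92% of all tested genes. Foxj1, the master factor of motile cilia, had a log2 fold change of -0.95, adjusted p = 0.182. Their summed FPKM was 38.4, 55.1, 40.3 and 71 in light-treated mice and 72.2, 74.9, 112 and 107 in untreated mice, with no overlap.

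Border macrophages had 4 of 10 markers tested, all lower, 3 with an unadjusted p below 0.05, and the chemokine gene Pf4 had an FPKM of 0.97, 3.1, 2.34 and 2.56 in light-treated mice and 3.39, 6.09, 10.3 and 3.44 in untreated mice and a log2 fold change of -1.36, adjusted p = 0.137. Of the 4, 1 passed the level only through untreated mice, and the other 3 were lower with a median of -1.36. The defining border macrophage markers Lyve1 and Cd163 were below the level tested. Blood endothelium had a median of -0.11 over 11 markers (0.0012 without untreated mouse 3), 3 with an unadjusted p below 0.05, and Slc2a1, the glucose transporter of the blood-brain barrier, was at -0.44, adjusted p = 0.0863. The 8 tested pericyte and smooth muscle markers had a median of -0.48, 4 had an unadjusted p below 0.05, and Tagln had -1.36, adjusted p = 0.14. Among border macrophage, endothelial and pericyte markers, all members with an unadjusted p below 0.05 were lower, against 9.92% of all tested genes. Of 7 tested blood cell markers, 6 were lower, 2 of these with an unadjusted p below 0.05, and none was called. The median was -0.33, from -1.325 without light-treated mouse 3 to 0.41 without untreated mouse 3. Of the 7, 1 passed the level only through untreated mice. S100a8 had 2.36, 0, 0.71 and 0.62 in light-treated mice and 2.1, 4.91, 4.59 and 2.59 in untreated mice. Its log2 fold change was -1.94, adjusted p = 0.149. Hba-a1, a haemoglobin gene whose reads a near-identical copy can share, had 11.1, 18.2, 57.9 and 11.3 in light-treated mice and 5.84, 37.4, 78.6 and 12.7 in untreated mice and a log2 fold change of -0.43, adjusted p = 0.803. Whether these cell types take part in the falls of matrix and growth factor genes was not tested.

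**Figure D4:**
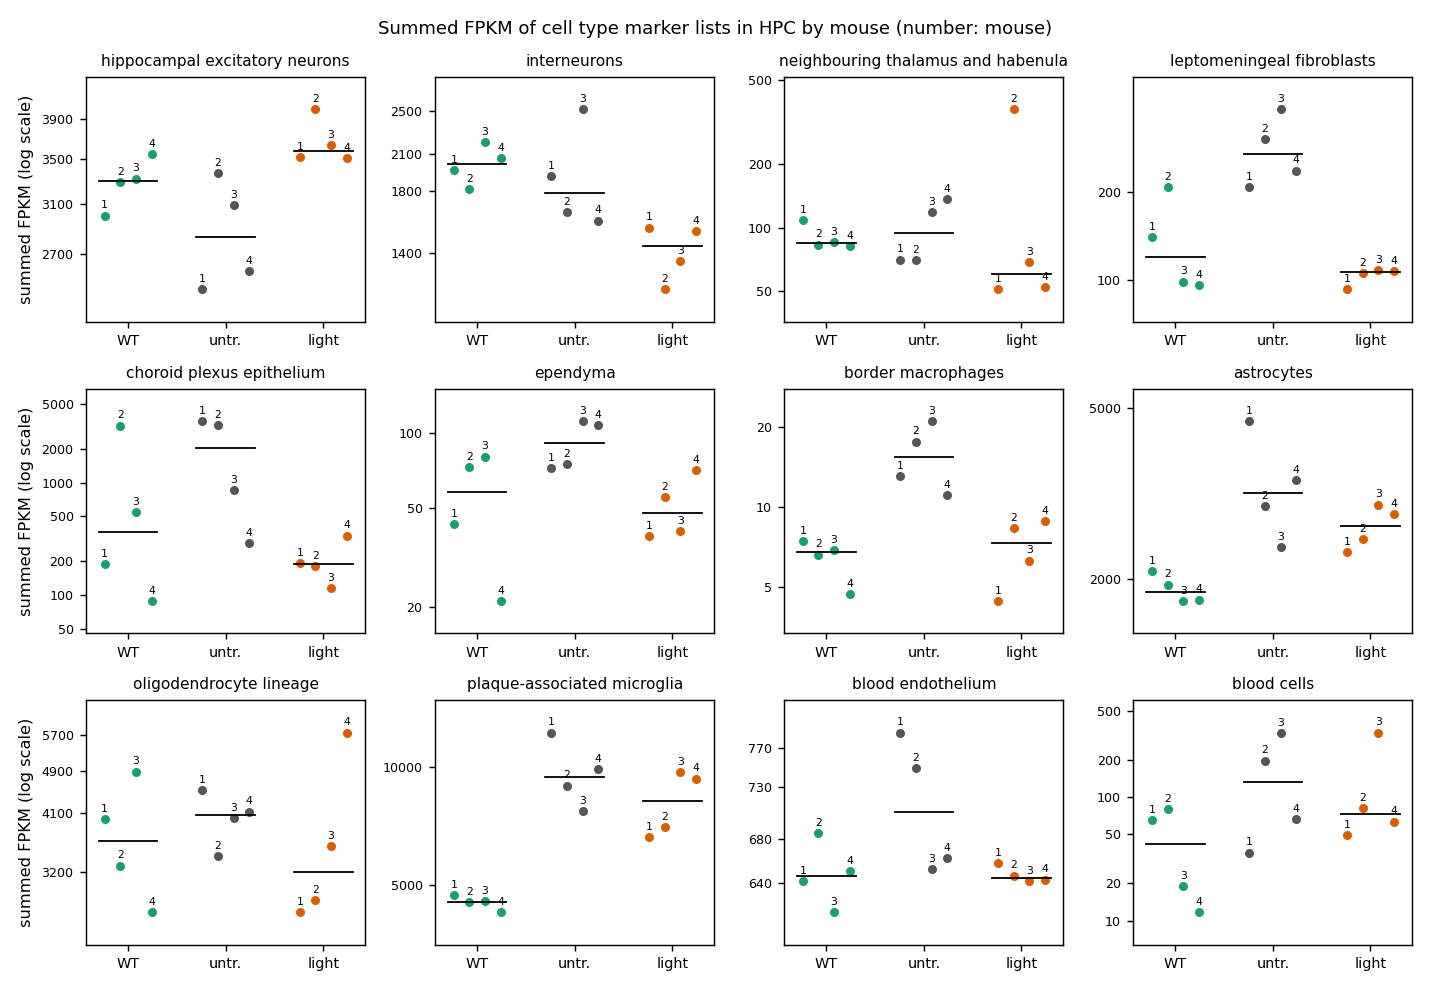
Summed FPKM (log scale) of 12 cell type marker lists in HPC of single mice (WT, 5xFAD without light, 5xFAD with light), with the number of the mouse beside each point and the median of each group as a line. Light-treated mice lie below all untreated mice for leptomeningeal fibroblasts, interneurons, ependyma and border macrophages and above them for excitatory neurons, and light-treated mouse 2 has a summed FPKM of 363 for thalamus and habenula. Most of the excitatory neuron sum is Camk2a.

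Lists of light sensing, body clock and respiratory genes were compared as well. None of 8 opsins, the light-sensing receptors, reached the level tested, and the highest value of any was 1.96 FPKM for Opn3. Clock genes had none called and a median of -0.28 over 18 members, which was 0.0098 without untreated mouse 3. An unadjusted p below 0.05 was found in 2 higher and 5 lower members, against 8.54% and 9.92% of all tested genes. Arntl, the clock activator BMAL1, had an FPKM of 10.8, 11.1, 8.87 and 10.1 in light-treated mice and 7.54, 8.07, 8.49 and 8.73 in untreated mice and a log2 fold change of 0.32, adjusted p = 0.135, with separate groups, and Cry2 had 0.33, adjusted p = 0.119, while Per2 and Nr1d1 had -0.58, adjusted p = 0.184 and -0.44, adjusted p = 0.149. Among 15 heat shock and cold-inducible genes, Hspb1, a small heat shock protein, had 8.06, 10.4, 6.54 and 10.9 in light-treated mice and 220.5, 26.1, 23.4 and 11.7 in untreated mice. Untreated mouse 1 was far above the rest, and the log2 fold change was -3.01 (SE 0.76, adjusted p = 0.0853). Rbm3, which is induced by cold, had 0.51, adjusted p = 0.162.

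Cytochrome c oxidase, often named as an acceptor of near-infrared light, had 23 tested subunit and related genes, 21 of them lower, with a median of -0.30 and none called (3 lower members with an unadjusted p below 0.05, against 9.92% of all tested genes). Without untreated mouse 3 the median was -0.17, and without light-treated mouse 2 it was -0.20. Cox4i1 had an FPKM of 1514, 1497, 1875 and 1704 in light-treated mice and 1844, 1959, 2236 and 1889 in untreated mice and a log2 fold change of -0.27, adjusted p = 0.222. Medians were -0.18 for the 36 genes of complex I, -0.12 for the 14 genes of complexes II and III with cytochrome c, and -0.22 for 17 genes of ATP synthase. Lower members numbered 30, 13 and 15 of these, with an unadjusted p below 0.05 in 6, 1 and 3 (9.92% of all tested genes), and none was called. Without light-treated mouse 2 these medians were -0.09, -0.07 and -0.13. For comparison, 52.8% of all tested genes were lower. In the shortest of 5 equal groups of genes by transcript length, described below, the median was -0.15 and 24.3% were higher. Ndufa6 (589 bases), Atp5e (429 bases) and Cox4i1 (759 bases) belong to that group. What transcript length adds to the respiratory medians was not tested. Ndufa6 had -0.41, adjusted p = 0.164 and Atp5e -0.45, adjusted p = 0.208. Of the genes encoded in mitochondria, mt-Nd4l had 2064, 1796, 2366 and 2773 in light-treated mice and 1763, 2184, 3941 and 1178 in untreated mice and a log2 fold change of -0.01, adjusted p = 0.985. The other 12 were not analysed here. The list of amyloid precursor, secretases and Thy1 had a median of 0.01 over 15 members, between -0.04 and 0.02 with 1 mouse left out, and none was called. An unadjusted p below 0.05 was found for 3 lower members, against 9.92% of all tested genes.

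The fold changes differed by transcript length. Tested genes were split into 5 equal groups by the effective length that the deposited counts and FPKM imply. The median log2 fold change was -0.15 in the shortest group (median length 1132 bases), -0.04 in the second, -0.01 in the third, 0.04 in the fourth and 0.08 in the longest (median length 5574 bases). Higher genes made up 24.3% of the shortest group and 63.4% of the longest. Of the 37 genes that rose, 22 were in the longest group. The 27 that fell were spread as 7, 5, 6, 6 and 3 from the shortest to the longest group. The longest group took 17.0, 16.7, 14.6 and 15.2% of counts in light-treated mice and 13.9, 14.7, 14.8 and 14.4% in untreated mice. Light-treated mice 1 and 2 were the highest. The shortest group took 25.0, 23.4, 28.4 and 27.8% in light-treated and 29.1, 29.0, 32.0 and 25.5% in untreated mice. The groups of mice overlapped in both shares. The part of transcript length in the rise of long genes and in the medians of the gene lists was not tested.

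**Figure D5:**
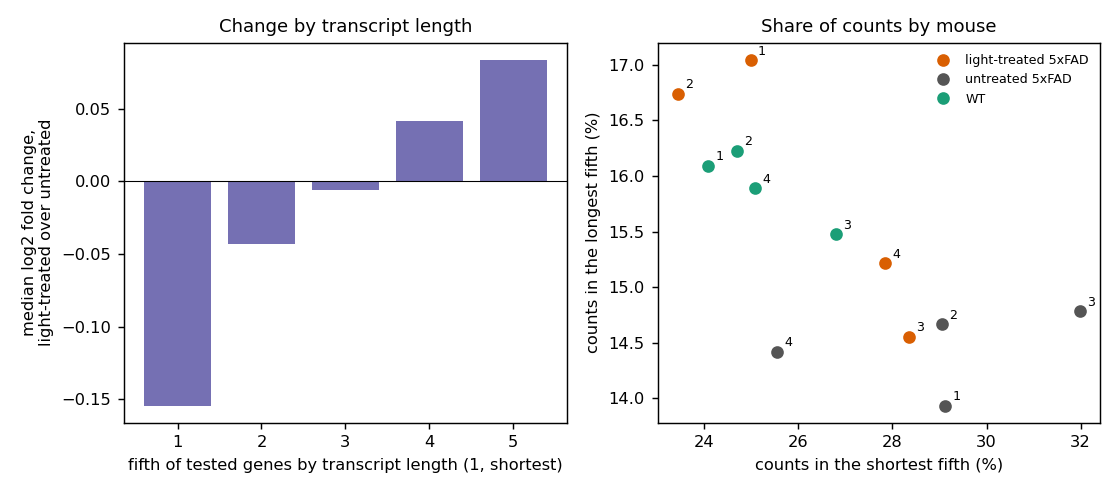
Left, the median log2 fold change of light-treated over untreated 5xFAD HPC in 5 equal groups of tested genes ordered by transcript length, running from -0.15 in the shortest to 0.08 in the longest. Right, the percentage of counts in the longest group (y axis) against that in the shortest group (x axis) for each mouse, where light-treated mice 1 and 2 have the highest shares of long transcripts.

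WT mice give a reference for the levels. The comparison of untreated 5xFAD with WT mice called 8.65% of the tested genes at an adjusted p below 0.05, and it shares the 4 untreated mice with the light comparison, so the values are set side by side only. Col6a2 had 0.522 ± 0.0988 FPKM in light-treated, 3.56 ± 1.79 in untreated and 1.37 ± 0.634 in WT mice. For Igfbp6 these were 14.1 ± 3.59, 76.9 ± 44.9 and 20.3 ± 2.02. Crabp2 had 1.09 ± 0.352, 6.37 ± 3.21 and 1.27 ± 0.644. The light-treated mean lay within the WT range in 11 of the 22 lower DEGs, and in 52.2% of all tested genes. Ccn3 had 3.64 ± 1.21 FPKM in light-treated, 10.2 ± 3.41 in untreated and 10.6 ± 1.26 in WT mice.

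The higher DEGs were chosen for high light-treated values, so their levels beside WT are a description. Cacna1c had 3.31 ± 1.13 FPKM in light-treated, 1.58 ± 0.277 in untreated and 1.72 ± 0.285 in WT mice, and Mycn had 3.92 ± 0.762, 1.09 ± 0.434 and 1.49 ± 0.888. For Itga8 the FPKM was 3.99 ± 1.07, 1.39 ± 0.542 and 2.62 ± 0.314. Of the interferon genes, Ifit1 had 2.36 ± 0.696, 4.88 ± 1.27 and 0.677 ± 0.154 FPKM in the 3 groups.

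The light effect in HPC was tested against that in meninges of the same strain, where 215 of 12838 genes (1.67%) differed between the tissues at an adjusted p below 0.05. The contrast uses the same HPC samples, so only the values of single genes are given. For Col6a2 the log2 fold change in meninges was 0.01 and the difference between tissues -2.78 (adjusted p = 0.0268). For Fmod these were 0.24 and -2.37 (adjusted p = 0.0298). Thsd7a had -0.62 in meninges and a difference of 1.83 (adjusted p = 0.00939), and Rreb1 had -0.60 and 1.82 (adjusted p = 0.0162). Mycn had 1.63 in meninges, close to its value in HPC, and a difference of 0.22 (adjusted p = 0.886). The mean FPKM of 17 of the 22 lower DEGs and of 6 of the 16 higher DEGs was greater in meninges than in HPC, against 48.5% of all tested genes. The count of genes that differ between tissues ran from 15 to 335 when 1 sample was left out, being 15 without untreated meninges 2, 19 without light-treated HPC 1 and 335 without untreated meninges 4.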

How the data were processed

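HPC samples of 12 mice and 10 meninges samples (4 WT, 3 untreated and 3 light-treated 5xFAD) were used, grouped by genotype, tissue and treatment as the labels give them. The authors prepared libraries with Smart-seq2, and deposited expected counts and FPKM values per gene, made from the aligned reads before deposit. The study's methods name fastp and RSEM, while the submitters' processing notes list Trimmomatic, HISAT2, StringTie and DESeq2 with mm10. Which of these made the deposited values is not given in the sources used here. Symbols were joined by gene identifier, and positions are from GENCODE on GRCm38.

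The deposited expected counts, rounded to whole numbers, entered the quasi-likelihood test of edgeR 4.0.16 with TMM scaling (R 4.3.3) over 12 HPC samples in 1 fit with WT, untreated and light-treated groups, with Benjamini-Hochberg adjustment over 12838 genes. Light effects in HPC and meninges were compared by a contrast over 22 samples. All adjusted p values in the text come from these fits unless another tool is named. DESeq2 1.42.0, limma 3.58.1 on log2(FPKM + 1) and log2(FPKM + 0.1), other filters and scalings, a block for the replicate number and leaving out each sample were tried as alternatives. Named genes were up to 15 DEGs in each direction by size, up to 10 genes under 2-fold by p, up to 4 members of each list by p, and genes of the transgenes. Called genes past these limits (Prr5, Cdh22, Pla2g4a, Ahnak, Tmsb10, Lrrtm4 and Zfp599) and the list members said so in the text, with Vim and Lcn2, were chosen after their values were seen. The members and lists were chosen with earlier results of these data known. Some named genes are not reported here.

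The fit was tested on simulated data with 200 changed genes in each run, where 48 were recovered at 1.5-fold, 162 at 2-fold and 191 at 4-fold, with 5, 9 and 9 false calls. Each gene was drawn on its own, with the same spread in all groups. Real pairs spread more among untreated mice (chi-square per degree of freedom 46 to 118.7) than among light-treated mice (10.38 to 33.99). Shifts shared by many genes of a mouse were not simulated, so these rates do not describe the real calls. Totals of 13952825 to 22190051 counts per HPC library limit the precision of genes near 1 FPKM. The labels name separate samples and no shared cages or days, so p values measure the spread between these samples.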

Additional observations from a re-analysis of the deposited data

Results flagged for a closer look

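In 24 of 344 groups of 4 mice that were checked, 1 mouse stood far from the other 3 by Dixon's criterion, which by chance marks about 1 in 20 groups. They were split evenly, 12 in light-treated and 12 in untreated groups.

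In light-treated mouse 1, the values that stood apart were those of Masp1 (2.33 FPKM) and Bace2 (0.28 FPKM). In light-treated mouse 2, the values that stood apart were those of Prkcd (58.74 FPKM), Gpr151 (25.49 FPKM), Nwd2 (7.96 FPKM), Tac2 (62.13 FPKM) and Mylk (1.66 FPKM). In light-treated mouse 3, the values that stood apart were those of Ifitm2 (28.4 FPKM) and Hba-a1 (57.93 FPKM). In light-treated mouse 4, the value that stood apart was that of Higd1b (6.33 FPKM). In untreated mouse 1, the values that stood apart were those of Fosb (15.94 FPKM), Fosl2 (6.71 FPKM), Aif1 (66.52 FPKM), Cd63 (389.29 FPKM), Cd9 (390.71 FPKM), Hspb1 (220.46 FPKM) and App (170.22 FPKM). In untreated mouse 2, the values that stood apart were those of Fam163b (93.97 FPKM), Dsp (1.49 FPKM), Kcnd2 (14.32 FPKM) and Adam10 (12 FPKM). In untreated mouse 3, the value that stood apart was that of Syt2 (13.2 FPKM). The summed FPKM of thalamus and habenula markers was 363.37 in light-treated mouse 2, and that of blood cell markers was 332.89 in light-treated mouse 3.

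The light effect differed between HPC and meninges at an adjusted p below 0.05 (edgeR, contrast over 22 samples) in 21 of 158 named genes. The share over all tested genes was 1.67%. Many of the named genes were chosen by their light effect in HPC, which is part of this contrast, so the count is a description only. The difference, HPC minus meninges on the log2 scale, was positive for Slc26a10 (2.118), Ryr1 (2.839), Itga8 (2.092), Sema5a (2.246), Rreb1 (1.825), Thsd7a (1.835), Auts2 (1.131), Camk2a (2.115), Kcna1 (1.766) and Scn8a (1.648). It was negative for Prg4 (-3.108), Bmp3 (-3.039), Col6a2 (-2.783), Crabp2 (-2.289), Col6a1 (-2.291), Fmod (-2.369), Pcolce (-1.965), Pafah1b3 (-1.065), Ifit1 (-2.615), Usp18 (-1.974) and Col1a2 (-1.978).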

How the results depend on the processing

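The number of DEGs depended on tool and mice, while most named genes, many of them chosen by size or p value in these data, kept their direction. The 38 DEGs became 59 without a filter on low values, 0 with a mean FPKM of at least 5, 0 in the 8 samples alone, 185 with DESeq2 over 12 samples, 204 with DESeq2 over 8 samples without a filter, and 0 to 135 when 1 mouse was left out. The 64 genes at an adjusted p below 0.05 became 96, 0, 1, 630 and 376 under these settings, and 0 to 270 when 1 mouse was left out. Leaving out untreated mice 1 to 4 gave 22, 135, 2 and 11 DEGs, and leaving out light-treated mice 1 to 4 gave 1, 0, 47 and 0. The 215 genes that differ between tissues became 99 without a filter, 135 at a mean FPKM of at least 5, 325 in the 14 samples of 5xFAD mice alone, 736 with DESeq2, 26 and 37 with limma at pseudocounts of 1 and 0.1, and 15 to 335 when 1 sample was left out. A robust dispersion, added after seeing the data, gave 34 DEGs. Replicate numbers were not treated as pairs. Correlations of the deviations of same-numbered HPC samples ran from -0.27 to 0.07 between groups, which does not settle whether they were paired. HPC and meninges samples of the same number were not compared. A block for the number, set within each tissue, gave 38 DEGs (25 higher and 13 lower, against 16 and 22 without it). It gave 57 genes at an adjusted p below 0.05 and 142 that differ between tissues. Of 2635 comparisons over 158 named genes, 12 changed sign, in 6 genes. With 1 mouse left out, log2 fold changes ran from -0.69 (without light-treated mouse 2) to 3.08 for Gpr151, from -0.79 (without the same mouse) to 1.42 for Tac2, from -0.300 to 0.0034 (without untreated mouse 1) for Ptprc, from -0.21 to 0.0129 (without untreated mouse 1) for Thy1, from -1.32 to 0.41 (without untreated mouse 3) for Hba-a1 and from -0.23 to 0.39 for mt-Nd4l, which was at 0.063 with the replicate block, 0.0012 with DESeq2 over 8 samples and 0.11 with limma at either pseudocount. Of 577 median log2 fold changes of 34 gene lists under these settings, 35 moved and 13 changed sign. A median was taken to move if it shifted by more than the SD between mice of the mean log2(FPKM + 1) of its list. By a stricter mark, a change of over 1.5 times or of sign, more medians moved with 1 mouse left out alone. The cause was not tested. With 4 mice per group and 2371 genes at an unadjusted p below 0.05, changes of 1.5-fold were mostly missed in simulation. That simulation drew each gene on its own, so recovery in the real data can differ.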
